A study of Schmidtea mediterranea with 5 samples.

Results

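The transcripts described here were lowered in planarians at the end of 8 days of light and stood nearer to the dark control again after 8 days back in the dark. They were chosen by their measured ratios between 3 of the 5 libraries and by their mean over all 5. A member had a mean of at least 1 CPM (reads per 1000000 reads of the library) over the 5 libraries, a value in the dark control at least 2 times that in the light library, and a value in the control less than 2 times that in the 8-day dark-return library, with 1 CPM added to every value as deposited. This held for 189 of 82843 transcripts in the table, of which 21307 had a mean of at least 1 CPM. Of these 21307, 1.67% met the light threshold. Beside the members, 167 transcripts met it and were still at least 2-fold under the control after 8 days in the dark, and these are the set the members are compared with.

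Schmidtea mediterranea is a freshwater flatworm whose brown dorsal colour comes from branched pigment cells lying under the epidermis. In planarians these cells make ommochrome pigment from tryptophan and porphyrins along the haem route, and porphyrins sensitise the cells to light, so that prolonged illumination bleaches the animal. In the dark the animals regain colour, with new pigment cells arising from the dividing stem cells called neoblasts.

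All libraries came from whole animals of the clonal asexual strain CIW4, starved for 1 week before collection per the labels. The groups were untreated wild-type animals kept in the dark, animals after 8 days of depigmentation by light, and animals given the same light and then returned to the dark for 1, 2 or 8 days, which the design text describes as starved. The submitters' design text states that 3 biological replicates were pooled in equal parts per condition. Each condition is therefore 1 library, with 38447289 to 50045371 reads, the spread between animals was not measured, and no difference between conditions could be tested. The intervals given below cover counting error between 2 libraries only. The samples also carry a treatment text on RNA interference and amputation, which does not match their titles and was not used. The table gives no gene name or sequence for its transcript numbers, so no gene, pathway or cell type could be assigned to a member and the labelled tissue could not be checked against markers. Levels are CPM, not adjusted for transcript length, so they are compared between libraries within a transcript and not between transcripts. In whole animals, fewer cells of a type and less RNA per cell cannot be told apart.

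The members made up a small part of the RNA. Summed over the 189 transcripts they took 1.27% of the reads in the dark control, 0.488% in the light library, 0.576% after 1 day in the dark, 0.599% after 2 days and 0.956% after 8 days. The sum thus stood at 38.5% of its control level after light, and at 45.5%, 47.3% and 75.5% after 1, 2 and 8 days. Most of the return of the summed level lay between day 2 and day 8, when it rose from 5987 to 9561 CPM. Members of high CPM weigh most in it. SmedASXL_010535 rose from 220.1 to 811.0 CPM and SmedASXL_073532 from 188.2 to 684.8 CPM. The median member had made 54.9% of its own 8-day gain, on the log2 scale, after 2 days. Without SmedASXL_006358, the member with the highest CPM, the sums were 37.03%, 44.1%, 46.0% and 78.4% of control. That member hardly differed between days 2 and 8 (919.8 and 917.7 CPM), and sums without others were not computed. The summed level of the 167 transcripts that were not regained was 35.2% of control after light and 37.3%, 36.9% and 32.1% after 1, 2 and 8 days. The 8-day values of both sets follow from how they were chosen.

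The typical member regained less than that sum. The median level, as a share of each member's own control CPM, was 35.1% in the light library, 47.3% after 1 day, 47.2% after 2 days and 60.8% after 8 days. At 8 days 53 members had regained at least 75% of their control CPM, against 3 after 1 day and 2 after 2 days, while 32 were still under 50% of it. These 32 are members because the rule adds 1 CPM to each value. The rule sets a lower limit on the level at 8 days and none at 1 and 2 days. The contrast of 53 members with 3 and 2 thus rests in part on the choice of members. The same counts over all transcripts were not computed.

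**Figure D1:**
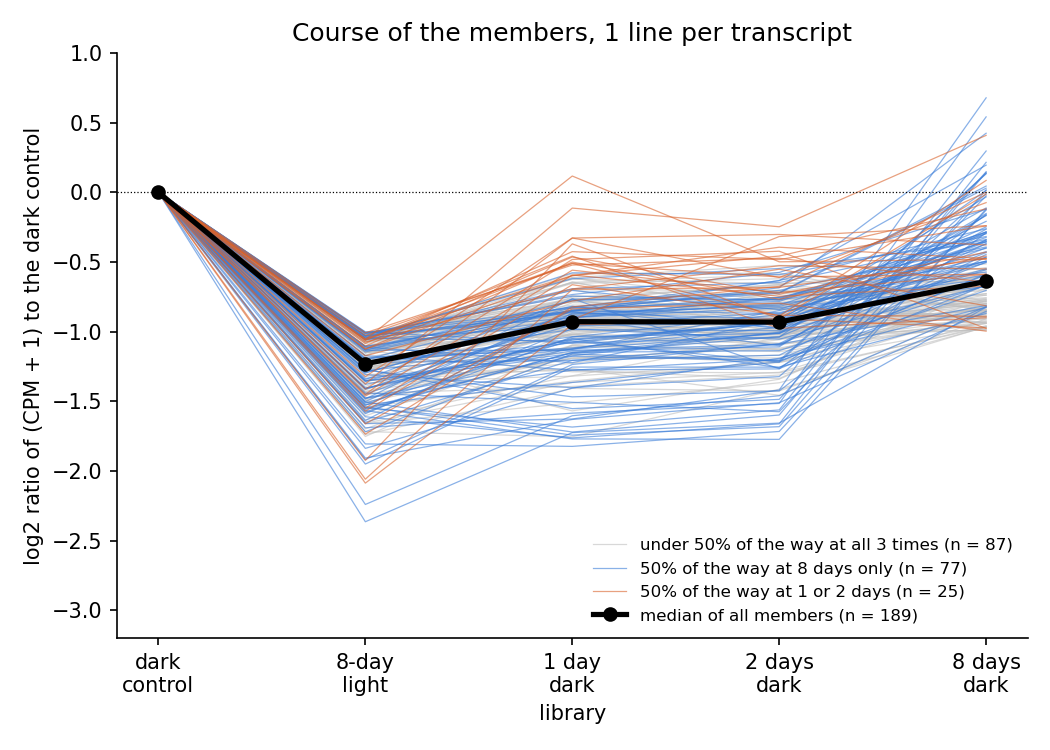
Log2 ratio of (CPM + 1) to the dark control for each of the 189 members (vertical axis) in the 5 libraries (horizontal axis, spaced evenly and not by time). Thin lines are transcripts, coloured by when they were 50% of the way back to the control, and black points are the median, which stood at -0.93 after 1 day, -0.93 after 2 days and -0.64 after 8 days.

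The return was followed for each member as the share of the way from its light level to its control level, on the log2 scale of CPM + 1, where 0% is the light level and 100% the control level. The median share on days 1, 2 and 8 of the return was 24.0%, 25.5% and 49.4%. The middle 50% of the members lay between 13.3% and 36.6% after 1 day, between 17.3% and 37.4% after 2 days and between 38.7% and 71.7% after 8 days. At least 50% of the way had been covered by 18 members (9.52%) after 1 day, by 19 (10.1%) after 2 days and by 93 (49.2%) after 8 days. Of the 167 transcripts that were not regained, 2 (1.20%) had covered as much after 1 day and 13 (7.78%) after 2 days. Their median shares were 10.3% and 14.8%. Complete return to the control level or above was seen for 1 member after 1 day, for 0 after 2 days and for 17 after 8 days, where 58.5%, 55.6% and 61% of all transcripts stood above the control. With 0.1 CPM added instead of 1 CPM, 21.3% of the members had covered at least 50% of the way after 1 day. With 5 CPM added it was 3.57%. The light and 8-day libraries entered the choice of members, so these shares describe them and carry no test; a member lowered 4-fold, for example, had to be over 50% of the way back at 8 days to be counted.

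In fold terms, most members lay slightly above the light library early and further above it at 8 days. After 1 day 170 members exceeded their light level by any amount, against 53.5% of all 21307 transcripts, and 28 (14.8%) were at least 1.5-fold above it, against 0.718% of all transcripts. After 2 days 171 were above it (51.6% of all transcripts) and 30 were at least 1.5-fold above it (0.601% of all). After 8 days all 189 were above it, which the rule fixes (58.8% of all transcripts were), and 110 were at least 1.5-fold above it (1.99% of all), 46 of them by 2-fold or more (0.418% of all). The other 79 members lay less than 1.5-fold above their light level at 8 days, and for 14 members the 95% counting interval of the ratio of CPM held 1. It lay above 1 for 175 members and below for 0, where 23.2% and 15.3% of all transcripts lay above and below. Relative to light, the members' median log2 ratio was 0.29, 0.31 and 0.67 after 1, 2 and 8 days, against 0.01, 0.01 and 0.04 over all transcripts. Of the transcripts that were not regained, 34 (20.4%) after 1 day and 41 (24.6%) after 2 days were at least 1.5-fold above light. These shares exceeded the members' 14.8% and 15.9%. An early 1.5-fold rise over light was thus not particular to the members. Fewer of the transcripts that were not regained exceeded light by any amount, 82.6% and 77.2% after 1 and 2 days. Their median log2 ratios were lower, at 0.18 and 0.25. The light library also chose the members, which by itself favours higher ratios to light, and by how much was not tested. In a choice made after seeing the data, the 2-day library took the place of the light library in the rule. This found 80 transcripts, 56 of which (70.0%) were above the light library after 1 day, with a median log2 ratio of 0.15. Of the 80, 73 were also members. The changed rule asks for a 2-day level at least 2-fold under the control, which leaves out transcripts that returned early. The lower values thus do not measure how much the choice by light raised the ratios.

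The ratio between the 2-day and 1-day libraries is the one that the rule did not use. Of the 189 members, 113 (59.8%) were higher after 2 days than after 1 day, against 47.4% of all transcripts, and 76 were lower. The median log2 ratio was 0.04, against -0.01 over all transcripts, and 50% of the members lay between -0.04 and 0.12. From day 1 to day 2, 1 member differed upwards by at least 1.5-fold and 1 downwards, where 0.117% and 0.188% of all transcripts were, and 0 reached 2-fold in either direction (0.0563% of all transcripts upwards, 0% downwards). For 142 members the 95% counting interval held 1, for 36 it lay above 1 and for 11 below, where 8.9% and 11.9% of all transcripts lay above and below. With scaling by the trimmed mean of M values (TMM), 76.0% of the members were higher after 2 days, beside 61.1% of all transcripts. The members' median was then 0.08 and that of all transcripts turned positive, at 0.03; with median-of-ratios scaling the medians were also 0.08 and 0.03. The 167 transcripts that were not regained had a median of 0.01, with 92 of them higher after 2 days, 7 by at least 1.5-fold. Their counting interval lay above 1 for 30 (18.0%) and below for 16 (9.58%), beside 19.0% and 5.82% of the members.

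**Figure D2:**
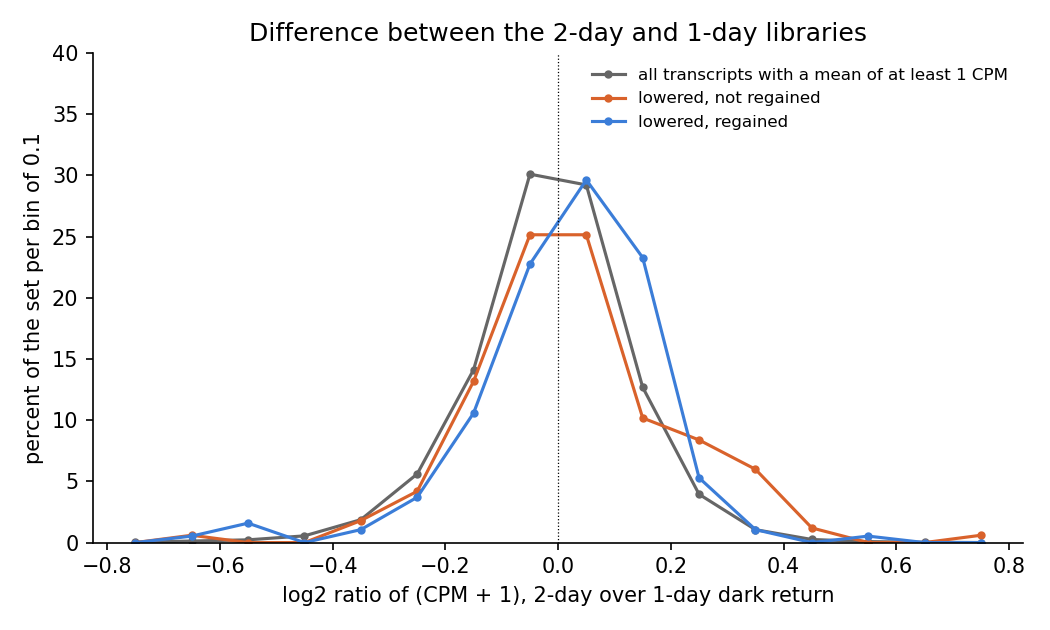
Log2 ratio of (CPM + 1) between the 2-day and 1-day libraries (horizontal axis) against the percent of each set in bins of 0.1 (vertical axis), for the 189 members, the 167 lowered transcripts that were not regained and all 21307 transcripts. The members' median is 0.04 and that of all transcripts -0.01; 6 of the transcripts that were not regained lie outside the range drawn.

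From day 2 to day 8 the differences were larger. Of the 189, 164 were higher after 8 days than after 2 days (57.2% of all transcripts), 50 by at least 1.5-fold (0.723% of all) and 17 by at least 2-fold (0.127% of all), and 0 were 1.5-fold lower (0.526% of all). The median log2 ratio was 0.30, against 0.03 over all transcripts. Among the transcripts that were not regained it was -0.02, and 79 of 167 were higher. The 8-day library chose both sets, so this contrast between them is not independent of the rule. Levels were higher at every step, from light through 1, 2 and 8 days, for 79 members (41.8%), against 8.65% of all transcripts. The same held for 37 (22.2%) of the transcripts that were not regained. The light and 8-day libraries enter these steps and also chose both sets. Measured as a share of what each member had gained by day 8, the median gain was 48.2% after 1 day and 54.9% after 2 days. Among the 110 members at least 1.5-fold above light at 8 days it was 39.0% and 43.9%, and 39 of these had made under 25% of the gain after 1 day.

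Members fell into a few courses by when they were at least 50% of the way back. For 77 members (40.7%) this held at 8 days and at neither earlier time. For 87 (46.0%) it held at none of the 3 times; their median was 21.4%, 22.2% and 38.7% of the way back after 1, 2 and 8 days, and their median log2 ratio of control to light was 1.15, where 1 is the threshold of the rule. For 10 members it held at all 3 times, for 3 from day 2 on, and for 3 at 1 and 8 days but not at 2 days. For 9 it held at 1 or 2 days and no longer at 8 days. These courses take no account of counting error. Of the 9, SmedASXL_000769 was 49.7%, 52.1% and 40.0% of the way back, and its 8-day to 2-day counting interval held 1 (0.479 to 1.16). That of SmedASXL_012442, also among the 9, lay under 1 (0.620 to 0.726). How many of the 9 differed by more than counting error was not computed.

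**Figure D3:**
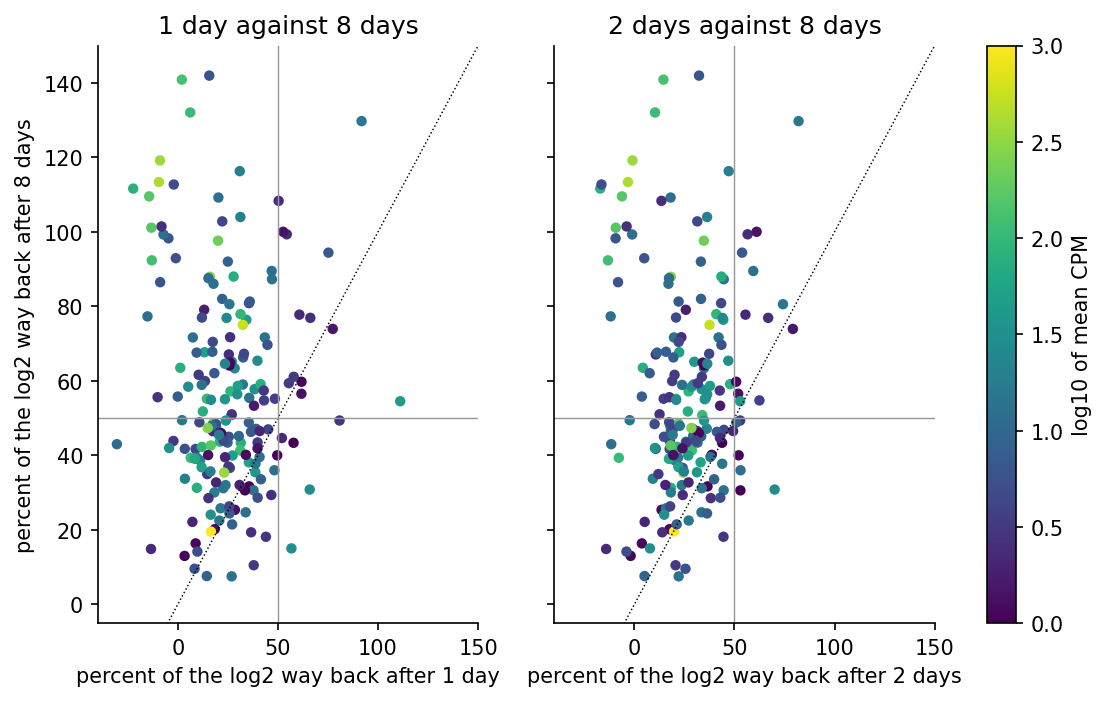
Percent of the log2 way back from the light to the control level after 8 days (vertical axis) against that after 1 day (left) and 2 days (right), 1 point per member, coloured by the log10 of its mean CPM. Most points lie above the dotted line of equality and left of the 50% line; 18 members are past 50% after 1 day, 19 after 2 days and 93 after 8 days.

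The size of the loss and the level of the transcript were then set beside the course. The 111 members lowered 2- to 2.5-fold were at a median of 46.0% of the way back after 8 days, the 51 lowered 2.5- to 3-fold at 57.4%, and the 27 lowered 3-fold or more at 55.5%. The rule itself asks more return of larger losses. After 2 days these medians were 22.2%, 29.2% and 33.6%. The light value enters both the size of the loss and the share of the way back, so the 2 are not independent. By mean level, the 19 members of at least 100 CPM were the slowest at first, with medians of 15.0% and 18.3% of the way back after 1 and 2 days, and the farthest at 8 days, with 75.0%; 0 of the 19 were 50% of the way back before day 8 and 12 were at day 8. The 68 members of 1 to 5 CPM had medians of 27.7%, 24.9% and 46.7%, and they held 13 of the 18 members that were 50% of the way back after 1 day. In these the light level rests on few reads, down to 1 read, and their light value was also the one that chose them.

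Among the 121 members averaging 5 CPM or more, the 5 with the largest loss returned in part. Below that level SmedASXL_024883, with the third largest loss of all members on the CPM + 1 scale, had 4.13 CPM in the control, 0.208 CPM in light (8 reads) and 4.08 CPM after 8 days, and was thus back at 98.8% of its control CPM. SmedASXL_004972 had 86.1 CPM in the control and 15.9 CPM in light, and then stood at 25.4, 26.6 and 48.2 CPM on days 1, 2 and 8 of the return. It was highest in the control, lowest in light, and between them at each later time. Its CPM was 5.41-fold higher in the control than in light (95% counting interval 4.96 to 5.90), and 3.03-fold higher after 8 days than in light (2.77 to 3.31), which left it at 56.0% of its control CPM. SmedASXL_014943 took a similar course, with 51.9 CPM in the control, 10.2 CPM in light, and 16.4, 18.2 and 29.0 CPM in the 3 later libraries. SmedASXL_011451 stood at 25.2, 5.77, 9.97, 9.97 and 13.3 CPM in the control, light, 1-, 2- and 8-day libraries. It had the same level after 1 and 2 days. SmedASXL_017838 stood at 218.7, 57.6, 70.0, 76.2 and 120.5 CPM in the same order, and SmedASXL_008846 at 71.7, 19.4, 26.5, 30.9 and 40.0 CPM. These 5 were at 53.0% to 56.0% of their control CPM after 8 days, close to the 50% line of the rule.

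Among the 121 members averaging 5 CPM or more, the 4 that ended highest against light were at most 14.5% of the way back on days 1 and 2; the fifth, SmedASXL_019387, had returned early and is described below. SmedASXL_011484 had 187.3 CPM in the control and 58.6 CPM in light, and its levels on days 1, 2 and 8 of the return were 60.0, 69.5 and 300.4 CPM. It stayed near its light level through day 2 and ended above the control, at 160.3% of the control CPM (counting interval of the ratio 1.56 to 1.65). It was the only member at least 1.5-fold above the control at 8 days on the CPM + 1 scale, as 2.68% of all transcripts were. SmedASXL_013664 had 160.3 CPM in the control, 49.0 CPM in light, and 52.8, 55.4 and 233.8 CPM after 1, 2 and 8 days. It too was close to its light level at 1 and 2 days, and at 145.8% of the control at 8 days.

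SmedASXL_010535 had 698.4 CPM in the control and 228.1 CPM in light, followed by 205.2, 220.1 and 811.0 CPM on days 1, 2 and 8. SmedASXL_073532 had 557.3, 190.1, 172.7, 188.2 and 684.8 CPM in the same order. After 1 day both were under their light level, with ratios of CPM of 0.8997 (counting interval 0.873 to 0.927) and 0.909 (0.880 to 0.939), and after 8 days they were 3.56-fold (3.47 to 3.64) and 3.60-fold (3.51 to 3.70) above it. In all, 7 members ended at or above the control after covering under 10% of the way at both 1 and 2 days; with TMM scaling 5 of the 7 were still at or above the control. Beside these 2 they were SmedASXL_010536, SmedASXL_014068, SmedASXL_008106, SmedASXL_003799 and SmedASXL_079232, which ended at 101.2%, 110.5%, 110.8%, 110.9% and 101.3% of their control CPM. This group was picked out after its values were seen. The ratio of SmedASXL_073532 to SmedASXL_010535 lay between 0.798 and 0.855 in the 5 libraries, and that of SmedASXL_014068 to SmedASXL_010536 between 0.946 and 1.03. The sources used here do not say how a read matching several contigs was counted, and whether these contigs share reads was not tested.

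**Figure D4:**
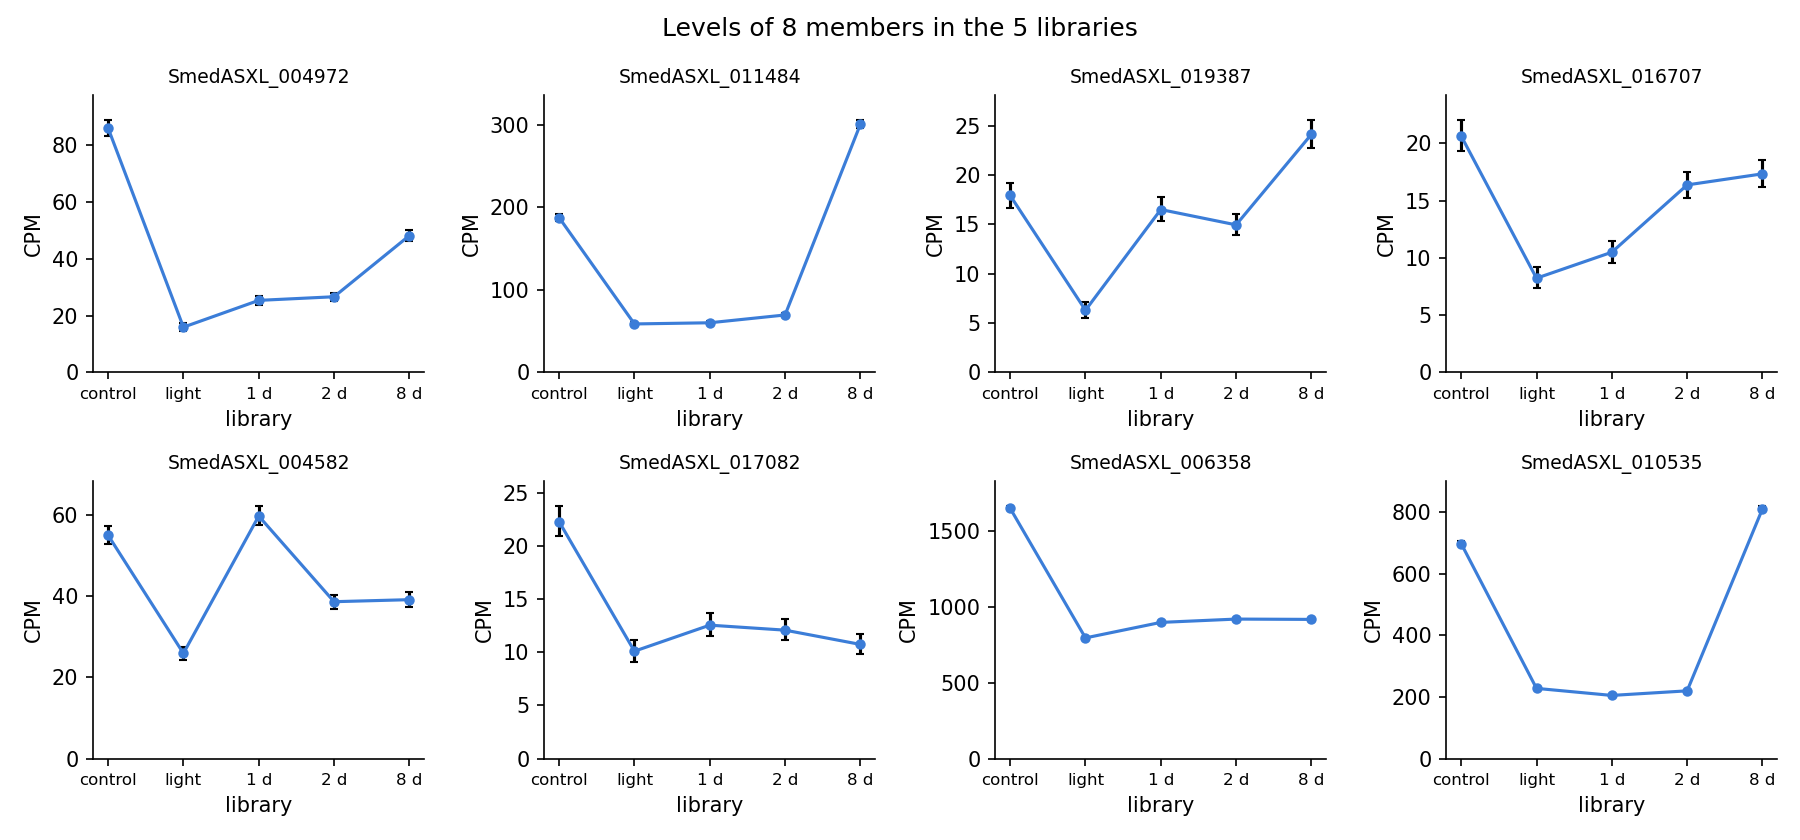
CPM (vertical axes, from 0) of 8 members in the dark control, the 8-day light library and after 1, 2 and 8 days in the dark (horizontal axes, spaced evenly), with 95% Poisson counting intervals as bars. SmedASXL_011484 and SmedASXL_010535 stay near their light level through day 2 and end above the control, SmedASXL_019387 and SmedASXL_004582 are near the control after 1 day, and SmedASXL_017082 and SmedASXL_006358 remain close to their light level at 8 days.

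A few members had covered most of the way early. SmedASXL_019387 had 17.9 CPM in the control, 6.29 CPM in light, and 16.5, 14.9 and 24.1 CPM on days 1, 2 and 8. After 1 day it was 2.62-fold above light (2.26 to 3.05) and 91.8% of the way back, and at 8 days it was above the control. SmedASXL_077698 had 9.44, 3.17, 7.32, 5.83 and 8.92 CPM in the same order, and SmedASXL_074633, also among the 5 highest against light after 1 day, had 21.7, 6.29, 11.4, 11.1 and 18.6 CPM. The first was 75.2% of the way back after 1 day. The second was 47.1% and 44.7% of the way back on days 1 and 2, under the 50% line, and 87.3% at 8 days. Of the 10 members at least 50% of the way back at all 3 times, 7 had a mean under 5 CPM; the other 3 were SmedASXL_019387, SmedASXL_077698 and SmedASXL_004582.

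For some members the highest level in the dark came early. SmedASXL_004582 had 55.0 CPM in the control, 25.9 CPM in light, and 59.8, 38.7 and 39.2 CPM on days 1, 2 and 8. It was the member that stood above the control after 1 day, and the one that was at least 1.5-fold lower after 2 days than after 1 day, with a ratio of CPM of 0.647 (0.609 to 0.686). SmedASXL_007047 had 47.0, 22.1, 34.0, 23.4 and 24.7 CPM in the same order, so that it was 56.8% of the way back after 1 day and 15.0% after 8 days. SmedASXL_012442 had 43.2, 15.6, 30.6, 32.0 and 21.5 CPM, and covered 65.9% and 70.1% of the way after 1 and 2 days but 30.8% after 8 days. The levels of these 3 at 8 days lay under their highest level at 1 or 2 days by more than counting error gives. Smaller differences from day 1 down to day 2 were found for SmedASXL_012148, with 5.45 and 4.64 CPM, where the counting interval of the ratio held 1 (0.706 to 1.02), and for SmedASXL_013830, with 81.0 and 70.8 CPM (0.834 to 0.916).

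SmedASXL_016707 was the member at least 1.5-fold higher on day 2 than on day 1. It had 20.6 CPM in the control, 8.22 CPM in light, and 10.5, 16.4 and 17.3 CPM on days 1, 2 and 8, with a 2-day to 1-day ratio of CPM of 1.56 (1.39 to 1.75). Most of its return thus lay between day 1 and day 2. SmedASXL_012033, SmedASXL_012207, SmedASXL_015337 and SmedASXL_019422 followed, with ratios of 1.17 to 1.22 between those libraries. SmedASXL_012033 had 47.3, 20.2, 21.1, 25.8 and 33.3 CPM in the control, light, 1-, 2- and 8-day libraries, SmedASXL_012207 had 39.1, 11.9, 15.1, 18.5 and 21.1 CPM, and SmedASXL_019422 had 37.7, 16.7, 20.4, 24.0 and 31.3 CPM. These 3 were higher at each step in the dark, and none of them had reached the control.

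The least return at 8 days was found for SmedASXL_017082, with 22.3 CPM in the control, 10.1 CPM in light, and 12.5, 12.1 and 10.7 CPM after 1, 2 and 8 days. Its 8-day level was 1.06-fold that in light, with a counting interval of 0.930 to 1.22, so no return could be seen at this depth, and it is a member because the control was just under 2-fold above the 8-day library on the CPM + 1 scale. SmedASXL_017644 (15.1, 6.66, 7.53, 6.95 and 7.10 CPM in the same order) and SmedASXL_069919 (9.41, 4.16, 4.47, 5.18 and 4.52 CPM) were likewise within counting error of their light level at 8 days. The member with the highest CPM, SmedASXL_006358, also returned little. It had 1650 CPM in the control, 795.6 CPM in light, and 897.9, 919.8 and 917.7 CPM after 1, 2 and 8 days, which was 55.6% of control at the end.

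Of the other members with the highest CPM, SmedASXL_018089 had 842.5, 342.5, 459.0, 480.5 and 673.1 CPM in the control, light, 1-, 2- and 8-day libraries, and SmedASXL_014963 had 564.0, 238.5, 291.1, 294.5 and 323.5 CPM. The first was 75.0% of the way back at 8 days and the second 35.4%. After 1 day they were 32.5% and 23.2% of the way back.

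Set against the dark control, the return was incomplete for most members. After 1 day 77 members were still at least 2-fold under the control (1.15% of all transcripts were) and after 2 days 73 were (1.08% of all). After 8 days 107 were still at least 1.5-fold under it (2.7% of all), the 2-fold limit being set by the rule. The counting interval at 8 days lay under the control for 163 members, held it for 16 and lay above it for 10, where 16.9% of all transcripts lay under and 34% above. Of the 17 members at or above the control at 8 days on the CPM + 1 scale, 14 had been under 50% of the way back at both earlier times. SmedASXL_014474 was among them, with 7.83 CPM in the control, 3.38 CPM in light, and 3.89, 4.496 and 10.9 CPM after 1, 2 and 8 days.

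The thresholds of the rule cut through a continuous range. SmedASXL_079232 and SmedASXL_015285 were just inside the light threshold, with ratios of 2.00 and 2.01 between control and light, and SmedASXL_079170 and SmedASXL_001804, both with a ratio of 2.00 after rounding, were just outside. At the 8-day threshold SmedASXL_000769 and SmedASXL_017644 were just inside, with 0.501 and 0.504 of the control value, and SmedASXL_030071 and SmedASXL_009960 just outside, with 0.4999 and 0.495. At the level filter SmedASXL_001306 and SmedASXL_009784 were inside, with means of 1.00 and 1.02 CPM, and SmedASXL_030107 and SmedASXL_053597 outside, with 0.971 and 0.966 CPM.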

How the data were processed

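RNA of whole animals was sequenced in 5 libraries, 1 per condition. Reads were shortened by 15 bases at the 3' end and mapped to the SmedASXL transcriptome with bowtie2, per the design text; per the submitters' processing notes the versions were bcl2fastq 1.8.3 and Bowtie2 2.2.4. The deposited values are CPM plus 1 per the file headers. After 1 was subtracted each column summed to 1000000, and 100% of the values above 0 were whole multiples of 1 read to within 0.001 reads, from which reads were computed. A count of 0 allows up to 0.060 to 0.078 CPM (3 reads). The deposited ratio column, the authors' control over light, equalled the quotient of its columns. All value columns were used (0 unused).

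Ratios used CPM + 1; intervals of ratios of CPM are exact conditional binomial 95% intervals (Clopper-Pearson, scipy 1.17.1). Reads carry no molecular identifiers, so intervals cover counting error only and may be too narrow. A count test needs replicates and was not run. The calculation was tested on simulated data with large losses, well-covered transcripts and counting noise only. That setting does not cover the 111 members lowered 2- to 2.5-fold or the 68 members of 1 to 5 CPM. The members and lists were chosen with earlier results of these data known. Named transcripts, among the 121 members with a mean of at least 5 CPM, are the 5 highest by control over light, 8-day over light, 1-day over light, 8-day over control and mean CPM, the 5 highest and 5 lowest by 2-day over 1-day, and the 5 with the least return at 8 days, 29 in all, plus the 2 nearest each side of each threshold. Others were named after their values were seen. Pathway and marker lists could not be applied without gene names. Alternatives changed the pseudocount, filter, fold and scaling, applying the rule anew.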

Additional observations from a re-analysis of the deposited data

Results flagged for a closer look

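The direction against the light library differed between times for 8 members, whose 95% counting interval lay under 1 after 1 or 2 days and above 1 after 8 days in the dark. The interval lay under 1 for 7 members (3.70%) after 1 day and 6 (3.17%) after 2 days. Among all transcripts these shares were larger, 11.4% and 12.4%. The choice of members by a low light value by itself favours smaller shares here. The rule also sets every member above light at 8 days on the CPM + 1 scale. The 8-day interval lay above 1 for 175 members (92.6%), against 23.2% of all transcripts. A member under light early was thus nearly bound to show both directions. How many of all transcripts met both conditions was not computed. The difference between times was not tested, because each time is 1 library. SmedASXL_010535, SmedASXL_073532, SmedASXL_010536, SmedASXL_014068, SmedASXL_008106 and SmedASXL_012073 had log2 ratios of CPM + 1 to light of -0.15, -0.14, -0.20, -0.21, -0.28 and -0.20 after 1 day, and of 1.83, 1.84, 1.56, 1.65, 1.42 and 1.45 after 8 days. SmedASXL_015337 stood at -0.37 after 1 day, -0.14 after 2 days and 0.52 after 8 days. SmedASXL_013830 stood at 0.09 after 1 day, -0.10 after 2 days and 0.53 after 8 days. SmedASXL_012073, not described above, had 217.3 CPM in the control, 72.7 CPM in light, and 63.0, 62.9 and 199.9 CPM after 1, 2 and 8 days. With TMM and with median-of-ratios scaling, all 8 were again under light after 1 or 2 days and above it after 8 days. The early result could not have differed, because both scalings lower every level after 1 or 2 days relative to light. The TMM factors, by which levels are divided, were 0.974 for light, 1.03 after 1 day, 0.999 after 2 days and 1.02 after 8 days. The 8-day ratios of CPM of the 8 members to light were 1.45 or more, too large for these factors to reverse. The rescaling is thus no separate check on these 8.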

How the results depend on the processing

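The number of members depended on the settings. It was 328 and 84 with pseudocounts of 0.1 and 5 CPM, 121 and 91 with means of at least 5 and 10 CPM, 683 and 87 with 1.5- and 3-fold thresholds, and 80 with the 2-day library in place of light. Of the 189 members, 160 were kept at 0.1 CPM and 60 at 5 CPM, 82 with 1.5-fold and 27 with 3-fold thresholds, and 177 of 189 with TMM scaling. The share of members past 50% of the return after 1 day was 21.3% and 3.57% with the 2 pseudocounts, 4.13% and 4.40% with the higher means and 19.8% with 1.5-fold thresholds. After 2 days it was 21.0% with 0.1 CPM, 6.61% and 6.59% with the higher means, and 18.0% and 20.7% with 1.5- and 3-fold thresholds, and after 8 days 23.0% with 3-fold thresholds. The share at least 1.5-fold above light after 1 day was 28.4% and 4.76% with the 2 pseudocounts, 4.98% and 46.0% with 1.5- and 3-fold thresholds and 8.94% with TMM scaling. After 2 days it was 25% with 0.1 CPM, and 3.95% and 54.0% with 1.5- and 3-fold thresholds, and after 8 days 29.1% with 1.5-fold thresholds. The share at or above the control was 4.60% with 3-fold thresholds. Of the medians of log2 ratios, 13 moved by over 1.5 times. For 2 days over 1 day they were 0.07 with both higher means, 0.02 with 1.5-fold thresholds and 0.08 with both scalings; with 1.5- and 3-fold thresholds they were 0.18 and 0.54 for 1 day over light, 0.20 and 0.65 for 2 days over light and -0.32 and -1.18 for 8 days over the control; 8 days over light was 0.42 with 1.5-fold thresholds, and 1 day over light 0.15 with the 2-day library in the rule. None changed sign. The other 54 counts and shares stayed within 1.5 times of those reported, and the share higher after 2 days than after 1 day did so under all 9 alternatives tried for it, at 55.9% to 76.0%. The cause of these changes was not tested. No paired analysis was possible because each condition has 1 library. Depth limits members of few reads, where the light level is known least.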

Other observations

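Some members had nearly the same values as another contig. SmedASXL_070953 and SmedASXL_075972 stood at 5.17 and 5.26 CPM in the control, 1.87 CPM each in light, 3.47 and 3.43 CPM after 1 day, 2.72 and 2.68 CPM after 2 days, and 3.58 and 3.56 CPM after 8 days. SmedASXL_067012 and SmedASXL_067013, neighbours by number, stood at 2.69 and 2.26 CPM in the control, 0.260 and 0.182 CPM in light, and 1.31 and 1.17 CPM after 8 days. Whether such pairs share reads was not tested, and counts over members treat them as separate transcripts. SmedASXL_043467 had 1 read in the light library (0.026 CPM) and 2.42 CPM in both the control and the 8-day library, with 0.932 and 1.14 CPM after 1 and 2 days.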
